A study of Homo sapiens with 8 samples.

Results

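The solvent-treated state of HEK293 cells was described from 4 of the 8 libraries of the study, the 4 labelled DMSO. HEK293 is a human embryonic kidney cell line, and DMSO is the solvent in which the splicing drug of the other 4 libraries, LMI070 at 25 nM, is dissolved. Those 4 libraries were not used here. The libraries were taken by that label alone: replicates 9 and 10, sequenced in lane 8, and replicates 11 and 12, sequenced in lane 7. The labels give no genetic change, no DMSO concentration, no treatment time and no statement that the 4 came from separate cultures, so spreads between libraries may be technical. Total RNA was depleted of ribosomal RNA and made into stranded libraries, per the labels.

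Splicing removes introns from a new transcript and joins its exons, and a read that spans such a join names both the donor site (the 5′ splice site) and the acceptor site (the 3′ splice site) that were used. Most human introns begin with GT and end with AG and are removed by the major spliceosome. A small class, often with AT and AC at the ends, is removed by the minor spliceosome. Exons that are joined in only part of the transcripts, called cassette exons, let 1 gene make several proteins, or add a stop codon that sends the transcript to nonsense-mediated decay.

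The libraries held 21975349, 26716014, 25324148 and 22079776 uniquely mapped junction reads in replicates 9, 10, 11 and 12, and a further 559557 to 696764 multiply mapped ones. A total of 452614 junctions had at least 1 unique read. The labelled cell line was checked against marker lists. Of 17 HEK293 identity genes with an intron, 15 were detected, that is, had at least 10 spliced reads in every library. They were led by VIM (vimentin), CDH2 (N-cadherin) and NEFL (neurofilament light chain). STMN2 had no read and NEFH did not reach the minimum. Detected markers of other cell types numbered 2 of 8 for fibroblasts (COL1A1 and COL3A1), 1 of 8 for blood (CD68), 2 of 7 for keratinising or cervical epithelium (CDH1 and KRT17) and 0 of 8 for hepatocytes. Their summed levels per intron were 0.606 to 0.631, 0.468 to 0.617, 1.21 to 1.30 and 0.00871 to 0.0187 RPM (reads per 1000000 annotated junction reads) over the 4 libraries, against 135 to 144 for the identity genes. VIM, which fibroblasts also use, gave 91.1 RPM of the latter on average. The identity list's median was 1.15, 6 of its 17 genes lay above the median of detected genes (2.80), and the kidney gene PAX2 and the adhesion gene L1CAM stood at 0.0579 and 0.0388. THY1, HBB, KRT14, APOA1, APOB, SERPINA1, CYP3A4 and FGB had no read.

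Spliced reads came from 20329 genes, and 13699 genes were detected. Of these, 12781 were protein coding, which is 67.3% of the 18989 coding genes with an intron. The detected set also held 208 antisense genes, 187 processed transcripts, 167 long intergenic noncoding genes and 230 transcribed unprocessed pseudogenes. Coding genes took 99.4% of annotated junction reads. The 10 genes with the most reads held 3.65% of annotated reads, the 100 deepest 16.5% ± 0.15 (SD, n = 4) and the 1000 deepest 52.1%. Reads per gene were counted over all its annotated introns, so a gene with many introns collects more. A level per intron was therefore used between genes, and in the marker check above: RPM averaged over the introns of the best supported transcript. Its median over detected genes was 2.80, and the median coefficient of variation between the 4 libraries was 7.06%. In such bulk libraries, fewer cells that use a gene and less RNA per cell cannot be told apart.

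The protein synthesis machinery led the ranking by level. EEF1A1, the elongation factor that brings aminoacyl-tRNA to the ribosome, stood at 1559, 1528, 1582 and 1545 RPM per intron in replicates 9 to 12, a mean of 1554 ± 22.8 (SD, n = 4) over 7 introns. All 4 libraries lay far above every other gene named here, none of which exceeded 485 in a library. The ribosomal protein gene RPL37A followed at 482, 485, 455 and 442 (466 ± 20.9), and RPS18 at 435, 439, 441 and 431 (437 ± 4.40). Their 4-library ranges do not overlap that of EEF1A1. RPL37A exceeded RPS18 in each library, with closest values of 442 and 441. RPL13A (420 ± 16.7), RPS19 (417 ± 17.5), GAPDH (414 ± 18.6), RPL37 (411 ± 19.4), RPS4X (411 ± 6.67) and RPL19 (409 ± 19.2) followed, and neighbours in rank among these 6 differed by less than the larger of their SDs. GAPDH and ENO1 (392 ± 10.7) are enzymes of glycolysis. RPL23A (389 ± 10.9), RACK1 (374 ± 5.81), TUBA1B (369 ± 12.5) and PTMA were also among the 15 highest of the genes whose best supported transcript has at least 3 introns. PTMA, which encodes the nuclear protein prothymosin alpha, had the widest spread: 416, 388, 330 and 295, a mean of 357 ± 54.8. Both lane 8 libraries exceeded both lane 7 libraries for PTMA.

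**Figure D1:**
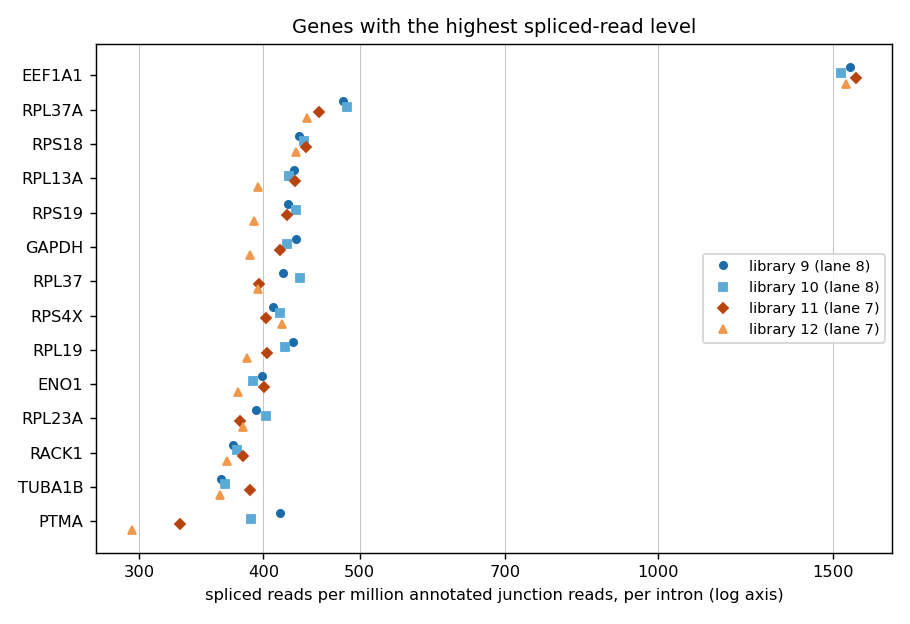
Spliced-read level of 14 of the 15 genes with the highest mean level, in RPM per intron (log axis); each point is 1 library, coloured and shaped by replicate and lane. EEF1A1 lies at 1528 to 1582, the others at or below 485, and PTMA spreads from 295 to 416.

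Ranked by total reads, EEF1A1 again came first, with 237820, 283417, 278057 and 236765 spliced reads. ENO1 followed with a mean of 102643 ± 11206 reads and GAPDH with 79020 ± 9413. NPM1, a nucleolar chaperone, had 75652 ± 5400 reads. The initiation factor helicase gene EIF4A1 had 71222 ± 8405, but 99.8% of these lay on introns it shares with other annotated genes. The read-through gene SENP3-EIF4A1 (75386 reads on average) and AC016876.2 (48027) held 99.999% and 100% of their reads on such introns, so the 3 are 1 signal. The same holds for AP002990.1 (49112 reads, 99.99% shared) and EEF1G (51755 reads, 94.1% shared), a subunit of the elongation factor complex. Long genes entered this ranking through their number of introns. USP9X, a deubiquitinase gene on the X chromosome, had 55561 ± 5173 reads over 44 introns at a level of 52.98 ± 1.99, and PRKDC, the catalytic subunit of the DNA-dependent protein kinase, 48412 ± 4580 reads over 85 introns at 23.9 ± 0.93. PLS3 (actin bundling), RPL13A, EEF2 (translocation of the ribosome), RPL4, RACK1, RPS4X, RPL7A, HNRNPA1, RPS18, RPS19, RPS2, RPL19 and HNRNPK were also among the 25 with the most reads.

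All 36 cytosolic ribosomal protein genes listed were detected, at levels from 90.1 to 466 with a median of 257 RPM per intron. All 20 translation factors were detected, with a median of 47.7. After EEF1A1 they were led by EIF4A1 (298 ± 9.35) and EEF1G (241 ± 6.20). Glycolysis (18 of 18 genes, median 64.2), chaperones (20 of 20, median 69.6), oxidative phosphorylation (20 of 20, median 38.8) and cytoskeleton (20 of 20, median 37.3) also had medians above that of detected genes. LDHB, one of the lactate dehydrogenase subunits, stood at 195 ± 5.55 behind GAPDH and ENO1. HSP90AB1 (160 ± 4.55), CCT5 (155 ± 1.24) and HSP90AA1 (148 ± 5.92) led the chaperones. COX7C (140 ± 4.96), ATP5F1B (139 ± 4.24) and COX6A1 (90.02 ± 5.24) led the respiratory chain and ATP synthase genes. ACTG1 (295 ± 26.3) and ACTB (265 ± 22.2), the nonmuscle actins, followed TUBA1B. The actins were lowest in replicate 12, at 256 and 233.

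Genes of a dividing cell were present throughout. All 24 mitotic genes (median 16.1) and all 24 DNA replication genes (median 14.4) were above the median of detected genes. CCNB1, the mitotic cyclin, stood at 64.2 ± 2.51, TOP2A, which untangles chromosomes, at 54.1 ± 2.16, and MAD2L1, a spindle checkpoint protein, at 41.1 ± 1.42. The replication clamp PCNA reached 79.3 ± 2.72, and the helicase subunits MCM7 and MCM3 59.0 ± 1.94 and 41.5 ± 0.86. Of 14 p53 target genes, 13 were detected, led by MDM2 (26.7 ± 1.45), BAX (16.9 ± 1.60) and CDKN1A (8.13 ± 0.50), with GDF15 under the minimum. Of 14 interferon response genes, 8 were detected, and the list's median was 0.274. Only 1 of the 14 lay above the median of detected genes. DDX58 at 1.08 ± 0.12 and IRF7 at 0.99 ± 0.18 lay below it. Among the identity genes VIM stood at 91.7, 93.4, 90.8 and 88.6 (91.1 ± 1.99), CDH2 at 15.2 ± 0.26 and NEFL at 13.2 ± 1.14.

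The machinery of splicing itself was well covered. Among 23 genes for proteins of the major spliceosome's snRNPs and U2 factors, 22 were detected, with a median of 28.5 RPM per intron. The Sm core genes SNRPD2 (103 ± 4.98), SNRPB (95.7 ± 6.47) and SNRPD1 (66.5 ± 3.88) led them. SF3B1, which recognises the branch site, stood at 35.0 ± 0.91. U2AF1, which binds the AG of the acceptor, was the exception. It had 0.0146 RPM per intron from unique reads, and 99.93% of its junction reads were multiply mapped, so its level cannot be read from unique reads. All 11 genes of the minor spliceosome were detected at a lower median of 2.50, led by SNRNP25 (23.3 ± 0.91), ZCRB1 (16.7 ± 0.91) and SCNM1 (6.95 ± 0.39). All 14 SR protein and TRA2 genes were detected (median 24.9), with SRSF3 at 110 ± 1.98, SRSF1 at 64.8 ± 4.99 and SRSF9 at 60.9 ± 3.60. All 22 hnRNP genes with introns were detected (median 36.4), and HNRNPA1 (251 ± 7.68), HNRNPC (146 ± 4.71) and HNRNPA2B1 (146 ± 7.35) were highest. All 18 genes of the exon junction complex and nonsense-mediated decay were detected (median 4.67), led by RBM8A (35.3 ± 1.40), EIF4A3 (32.3 ± 0.79) and RNPS1 (20.4 ± 0.86).

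A list of splicing regulators from families with members known from particular tissues split into a detected and an undetected set of almost equal size. Not each listed gene is itself confined to a tissue. Of 29, 15 were detected and the median was 0.277. KHDRBS1 (19.5 ± 0.62), QKI (14.04 ± 0.36) and CELF1 (8.90 ± 0.31) were highest, with MBNL1 at 6.80 ± 0.22, RBFOX2 at 6.27 ± 0.21 and the epithelial regulator ESRP2 at 1.96 ± 0.14. RBFOX1, KHDRBS2 and SRRM4, known from neurons, had no read. PTBP2 (2.94 ± 0.049) and ELAVL2 (2.90 ± 0.22), also known from neurons, were detected just above the median of detected genes. The neuronal NOVA1 and NOVA2, ELAVL3 and ELAVL4, RBFOX3, CELF3 to CELF6 and SRRM3, and epithelial ESRP1, had reads but did not reach the minimum. Among 23 snoRNA host and other long noncoding genes with introns, 20 were detected, and SNHG5 (34.0 ± 1.87), SNHG16 (31.2 ± 1.08) and GAS5 (16.9 ± 1.00) led. LINC-ROR had no read.

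Almost all reads fell on annotated introns of the GT-AG class. The annotated share of reads was 99.13% ± 0.0032 (SD, n = 4), with 222369 annotated junctions carrying 95263270 reads. GT-AG introns took 99.13% ± 0.0042 of all junction reads, GC-AG introns 0.729% ± 0.0033, AT-AC introns 0.106% ± 0.0013 and all other dinucleotides 0.0346% ± 0.00040. Of annotated junctions with a read, 73.8% were seen in all 4 libraries and held 99.8% of annotated reads. At 102748 donors with at least 100 reads, the main acceptor took 99% or more of the reads in 86.9%. At 102868 acceptors the main donor did so in 86.6%.

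Where neighbouring introns were read, AT-AC and GC-AG introns had about as many reads as these neighbours in the same transcripts. Over all annotated junctions with a read, the median over the 4 libraries was 13 reads for GC-AG, 158 for AT-AC, 77 for GT-AG and 4 for other dinucleotides. In the same order, 58.4, 81.7, 74.0 and 37.8% were seen in all 4 libraries. The AT-AC intron with the most reads was intron 4 of HNRNPL, itself a splicing regulator, on chromosome 19 (38844105 to 38845649, GRCh38), with 1589, 1848, 1902 and 1710 reads. That was 91.1% ± 5.01 of the mean of the 2 introns beside it. HSBP1 (1198 reads on average), PHB2 (1192), DDB1 (1045), SMS (898) and IPO5 (752) followed. GC-AG introns were led by RACK1 intron 2, at 8804, 10446, 10690 and 8598 reads and 104% ± 2.74 of its neighbours, then RPS27A (5943 reads), BTF3 (4042), PKM (3780), HSPD1 (3279) and HNRNPU (3239). Over all internal introns whose neighbours averaged at least 20 reads, the median share of the neighbours' reads was 97.0% ± 1.59 for 118 AT-AC introns, 99.5% ± 0.33 for 685 GC-AG introns and 102% ± 0.13 for 89628 GT-AG introns. Introns of other dinucleotides were led by GNAS, at 32.5% ± 1.04 of its neighbours' reads, then IK (109% ± 2.71) and CNBP (38.2% ± 1.25). The GNAS intron is the skipping junction of the 45-nt GNAS cassette exon reported below, with the same 623, 743, 634 and 574 reads. No median share was computed for introns of other dinucleotides. Under 50% of the neighbours' reads were found at 1.69% of AT-AC, 2.92% of GC-AG and 1.86% of GT-AG introns.

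The donor sites of 3 of these introns show the 2 rare classes side by side, each with the last 5 exon bases and the first 12 intron bases, taken 5′ to 3′ from GENCODE 29 transcripts (GRCh38) whose exons cover these bases, with the position of the intron; capitals mark the first 2 intron bases.
DDB1 (chr11:61300933-61302256, minus strand): tccttATatccttccca
RACK1 (chr5:181241640-181242173, minus strand): acaacGCaagtagctgc
HSPD1 (chr2:197494251-197494656, minus strand): taaagGCaagtgtgttt
The acceptor of the same DDB1 intron, with the last 12 intron bases and the first 5 exon bases and with the last 2 intron bases in capitals, reads as follows.
DDB1 acceptor: tcacccatccACctgga

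Most internal exons were joined in nearly every transcript. Of 70411 internal exons with at least 200 reads on each side, 68.6% had no skipping read and 98.5% were included at 90% or more. Alternative use was measured for 11934 cassette exons in 6074 genes, each with at least 10 reads per library and 10 reads for each form over the 4 libraries. Inclusion is the mean of the 2 inclusion junctions as a percent of that mean plus the skipping reads. It was 90% or more for 46.1% of these exons and under 10% for 14.5%, and the median SD between libraries was 2.01 percentage points. The minimum sets these shares: with 1 read of each form over the 4 libraries, 39608 exons were measured and 76.6% were included at 90% or more.

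The annotation of an exon and its inclusion went together. Of 7769 coding cassette exons, 61.5% were included at 90% or more and 4.87% under 10%. Of 1013 exons annotated in decay-targeted transcripts but in no protein-coding one, 56.8% were included under 10% and 8.49% at 90% or more. Inclusion counts reads of the RNA present, and the part of decay in it was not tested. Exons of untranslated regions (1120) were most often between 10 and 50% (40.8%). Length in coding exons followed inclusion as well. A length that is a multiple of 3, which keeps the reading frame, was found in 77.2% of coding exons under 10%, 77.7% of those at 10 to 50%, 53.7% at 50 to 90% and 46.0% at 90% or more. In decay-annotated exons it stayed between 29.1% and 36.7% in the 4 classes. Over all cassette exons the share was 41.1, 48.7, 47.8 and 44.1% from the lowest to the highest class. The kinds come from the transcript annotation, and whether that grouping is independent of the reading frame was not tested. These shares are descriptions over exons, which are not replicates.

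**Figure D2:**
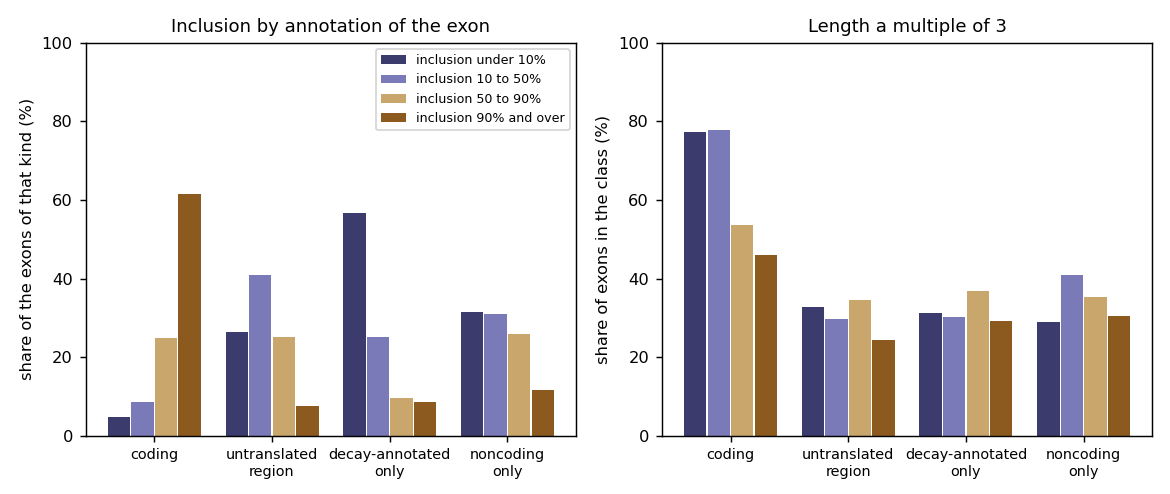
Left, share (%) of the cassette exons of each annotation kind in 4 inclusion classes; right, share (%) of the exons of each class whose length is a multiple of 3. Coding exons lie mostly at 90% and over (61.5%) and decay-annotated exons mostly under 10% (56.8%), and frame-keeping lengths reach 77.2% and 77.7% in the 2 low classes of coding exons.

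Among the alternative exons with the most reads on both forms, RPS24, a ribosomal protein gene, led with a 22-nt exon included at 27.7, 28.5, 28.9 and 28.6% in replicates 9 to 12, a mean of 28.4% ± 0.54. HNRNPA2B1 followed with a 36-nt exon near the start of its coding sequence at 28.2, 27.4, 30.2 and 29.4% (28.8% ± 1.23). The 4 values of each exon lay within 3 percentage points. ZNF711, an X-linked zinc finger gene, had a 138-nt exon at 26.1% ± 0.46. Other hnRNP genes had HNRNPC 26 nt at 82.2% ± 1.24, HNRNPK 72 nt at 85.2% ± 0.46, HNRNPH1 50 nt at 83.9% ± 0.83 and HNRNPA1 156 nt at 6.52% ± 0.47.

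Further exons of this rank were MYL6 45 nt (a myosin light chain) at 23.5% ± 0.73, EIF4H 60 nt (an initiation factor) at 27.2% ± 0.35, APLP2 168 nt (a relative of the amyloid precursor protein) at 27.9% ± 1.59 and ENAH 63 nt (an actin regulator) at 35.6% ± 1.53. BCLAF1 147 nt stood at 66.8% ± 0.87, HMGCS1 59 nt, in the untranslated region of a cholesterol synthesis gene, at 59.3% ± 2.10, and NPM1 87 nt at 96.8% ± 0.23. Exons of the noncoding genes LRRC75A-AS1 (176 nt) and SNHG16 (99 nt) stood at 29.4% ± 0.36 and 38.0% ± 0.94. For 3 of the 20 the inclusion junctions disagreed, so the percentage does not describe a whole exon: the lesser junction had 0.0965% of the reads of the greater in ALDOA (52 nt, 43.5% ± 2.07), 0.612% in RPLP0 (78 nt, 86.3% ± 0.29) and 18.2% in GNAS (45 nt, 45.1% ± 1.61).

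**Figure D3:**
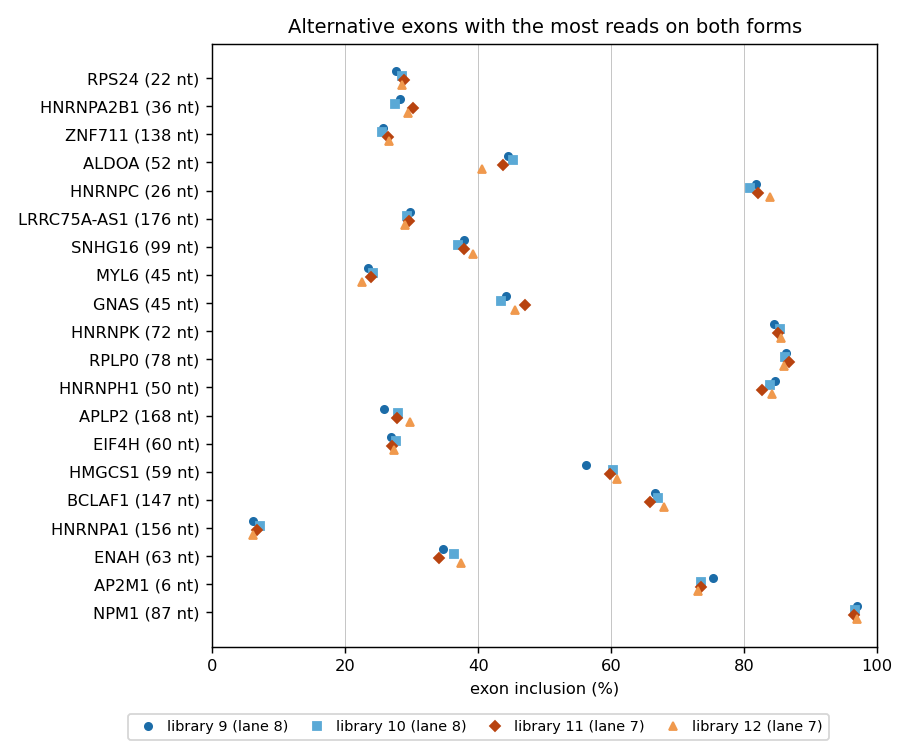
Inclusion (%) of the 20 alternative exons with the most reads on both forms, 1 per gene; each point is 1 library, coloured and shaped by replicate and lane. The 4 libraries of an exon lie close together from HNRNPA1 at 6.52% to NPM1 at 96.8%, and ALDOA spreads most, from 40.6 to 45.3%.

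A selection of 7 short exons, the 2 deepest and 5 microexons of genes described here, is shown with 10 bases of the neighbouring exon on each side, 5′ to 3′ from GENCODE 29 transcripts (GRCh38), because each whole exon can be read at a glance; capitals mark the alternative exon.
RPS24, 22 nt (chr10:78040204-78040225, plus strand): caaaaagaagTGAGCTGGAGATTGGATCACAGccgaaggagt
HNRNPA2B1, 36 nt (chr7:26197831-26197866, minus strand): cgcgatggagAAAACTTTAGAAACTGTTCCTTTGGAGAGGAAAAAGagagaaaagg
AP2M1, 6 nt (chr3:184180645-184180650, plus strand): caagagtcagCATCAGacaaaagaag
PSAP, 9 nt (chr10:71823888-71823896, minus strand): gatgcacatgCAGGATCAGcaacccaagg
DNM2, 12 nt (chr19:10808569-10808580, plus strand): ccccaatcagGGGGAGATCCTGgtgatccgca
CLTC, 21 nt (chr17:59687001-59687021, plus strand): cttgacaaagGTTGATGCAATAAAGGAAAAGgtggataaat
FLNA, 24 nt (chrX:154357251-154357274, minus strand): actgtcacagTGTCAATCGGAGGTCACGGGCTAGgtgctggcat

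Exons of at most 27 nt, called microexons, numbered 225 among the cassette exons, and 75.1% had a length that is a multiple of 3. Their median inclusion was 43.7%, against 88.0% for longer cassette exons. Several of the sequences above belong to proteins of membrane traffic. AP2M1, a subunit of the clathrin adaptor of endocytosis, had its 6-nt exon at 75.3, 73.5, 73.5 and 73.0% (73.8% ± 1.00). CLTC, the clathrin heavy chain, had its 21-nt exon at 10.4% ± 0.59, DNM2, the dynamin that pinches off vesicles, its 12-nt exon at 43.3% ± 2.06, and PICALM, a clathrin assembly protein, its 24-nt exon at 56.6% ± 4.93. The lysosomal PSAP stood at 22.3, 21.0, 20.1 and 18.9% (20.6% ± 1.44), and FLNA, an actin crosslinker, at 82.9% ± 1.26. The values of PSAP in lane 8 lay above those in lane 7, by less than 4 percentage points, and how many exons separate the lanes was not counted.

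PKM makes pyruvate kinase with either of 2 mutually exclusive exons, the M1 or the M2 exon. They are printed because they have the same length, 167 nt, and the same neighbours, and the pair was chosen after its values were seen; 10 bases of the shared neighbouring exons are in lower case.
PKM M1 exon (chr15:72203022-72203188, minus strand): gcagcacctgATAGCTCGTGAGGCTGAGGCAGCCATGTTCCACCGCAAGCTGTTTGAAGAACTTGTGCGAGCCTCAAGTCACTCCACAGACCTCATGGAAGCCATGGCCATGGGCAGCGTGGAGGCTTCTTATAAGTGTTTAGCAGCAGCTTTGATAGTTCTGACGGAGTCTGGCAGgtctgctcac
PKM M2 exon (chr15:72202454-72202620, minus strand): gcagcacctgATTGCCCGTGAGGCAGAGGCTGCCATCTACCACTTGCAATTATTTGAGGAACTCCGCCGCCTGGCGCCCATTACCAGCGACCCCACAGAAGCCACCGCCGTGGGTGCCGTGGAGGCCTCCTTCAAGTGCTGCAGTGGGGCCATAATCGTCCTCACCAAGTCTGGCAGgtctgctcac
The M2 exon took 96.4, 96.2, 95.8 and 95.3% of the junction reads of the pair in replicates 9 to 12, a mean of 96.0% ± 0.47. The M1 exon took 4.05% ± 0.47. M2 is the form known from proliferating cells.

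Of 55 genes with known alternative exons, 48 had a measured cassette exon, and the exon with the most reads on both forms was taken in each, which is not always the exon the gene is known for. Exons annotated in decay-targeted transcripts of splicing factor genes had low inclusion in the RNA present: SRSF3 456 nt at 2.62, 2.09, 2.34 and 2.15% (2.30% ± 0.24), HNRNPDL 105 nt at 2.45% ± 0.25, SRSF2 104 nt at 3.50% ± 0.29 and TRA2B 276 nt at 6.78% ± 0.57. How often they are joined before decay was not tested. SRSF6 268 nt stood at 14.8% ± 2.53, with a lesser inclusion junction at 26.99% of the greater. Coding exons of splicing regulators named here ranged widely, from the 6.52% of HNRNPA1 to the 85.2% of HNRNPK above. Between these lay PTBP1 78 nt at 81.9% ± 1.23, SRSF7 36 nt at 83.5% ± 0.99, MBNL1 54 nt at 72.1% ± 4.20, TIA1 33 nt at 68.7% ± 2.15, CLK1 91 nt at 77.4% ± 4.11 and HNRNPD 147 nt at 39.9% ± 1.85.

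In receptor and adhesion genes, the insulin receptor INSR had its 36-nt exon at 12.9% ± 4.33, FGFR1 a 267-nt exon at 45.1% ± 3.50 and FGFR2 a 267-nt exon at 64.3% ± 2.45. The fibronectin gene FN1 had a 273-nt exon at 66.2% ± 3.29, and FAS, a death receptor, its 63-nt exon at 93.0% ± 3.94. APP, the amyloid precursor gene, had a 57-nt exon at 34.3% ± 3.19, and NUMB, a regulator of Notch signalling, a 144-nt exon at 50.2% ± 5.84. In genes of cell death and p53 control, MCL1 248 nt stood at 98.4% ± 0.46, MDM4 68 nt at 60.1% ± 2.97 and MDM2 93 nt at 6.63% ± 1.10. Spread was widest where reads were few. PTBP2 34 nt read 60, 29.7, 47.1 and 36.1%, BIN1 90 nt 37.1, 45.9, 55.6 and 63.0%, and MAPT 87 nt 28.9, 14.8, 13.6 and 9.09%. BIN1 was higher and MAPT lower in both lane 7 libraries than in both lane 8 libraries, on means of 7.75 and 3.625 inclusion reads. Such an order of 2 against 2 libraries has p = 0.333 by an exact two-sided permutation test. How many exons show it was not counted. In CLTA, TPM1 and CTNND1 the lesser inclusion junction held 0.0725%, 1.13% and 12.7% of the greater, so their percentages do not describe whole exons.

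Unannotated junctions were many and shallow. They made up 32.0, 34.3, 33.2 and 31.5% of the junctions of replicates 9 to 12 (32.8% ± 1.26) and carried 832017 reads, under 1% of the total in each library. The share was higher in the 2 deeper libraries, replicates 10 and 11. With at least 5 reads over the 4 libraries it was 14.8%. The median was 1 read per junction. Of the 230245 unannotated junctions, 65.1% were seen in 1 library and 8.99% in all 4, and the latter held 52.8% of the reads. GT-AG junctions were 98.0% ± 0.072 of them. Annotated donors joined to new acceptors took 31.9% ± 0.22 of unannotated reads, new pairs of annotated sites 25.8% ± 0.070, new donors joined to annotated acceptors 24.9% ± 0.15 and pairs of new sites 17.4% ± 0.18. No unannotated junction was longer than 20000 nt, while 16896 annotated introns (7.60%) were. Unannotated GT-AG, GC-AG and AT-AC junctions also had an overhang of at least 12 nt, the longest stretch of a read on the shorter side. Unannotated junctions of other dinucleotides had at least 31 nt, and at least 3 unique or multiply mapped reads in each library that held them. Annotated junctions started at an overhang of 1 nt. These limits are in the deposited tables, and their part in the counts and in the motif shares was not tested.

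Part of the unannotated junctions joined a site close to the annotated site in use. That site could itself be annotated elsewhere, since new pairs of annotated sites were kept. Distance was measured from the acceptor (or donor) that the shared partner site joined most often, with positive values downstream. Of 112684 unannotated junctions that share a donor with an annotated one, 13.9% had an acceptor within 30 nt. The most frequent distance was 3 nt downstream, with 1809 junctions and 24298 reads, followed by 4 nt (1786 junctions, 7352 reads). Acceptors 3 nt upstream were fewer (304 junctions) but deep, with 8197 reads. Of 95471 unannotated junctions that share an acceptor with an annotated one, 7.19% had a donor within 30 nt. The donor peak was 4 nt downstream (913 junctions, 3840 reads), then 4 nt upstream (340 junctions, 2200 reads).

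**Figure D4:**
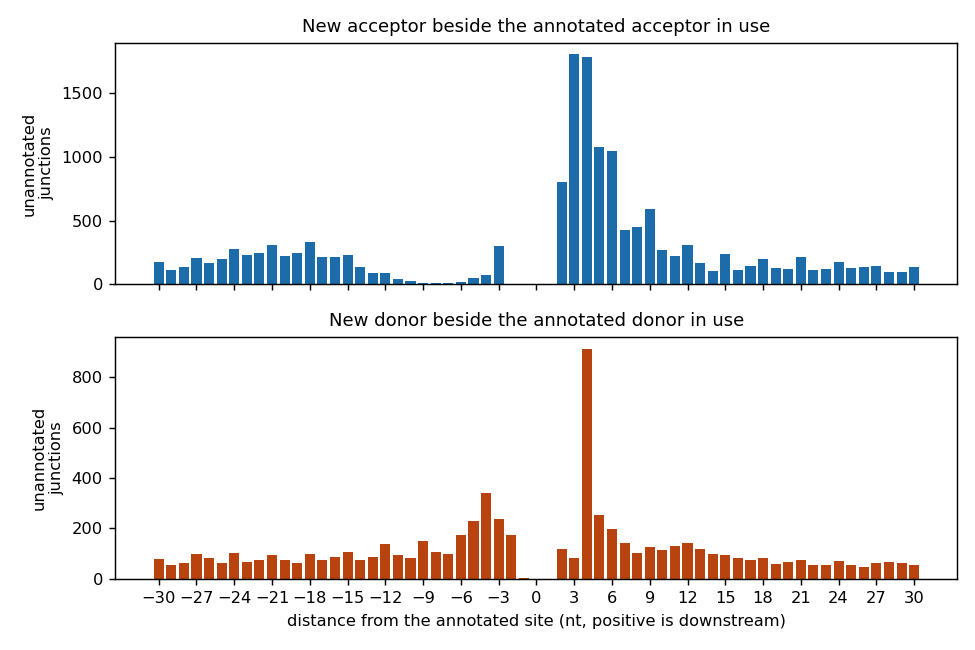
Number of unannotated junctions by distance (nt) of their acceptor (top) or donor (bottom) from the annotated site in use, within 30 nt, with positive values downstream. Sites annotated elsewhere are included. Acceptors peak 3 and 4 nt downstream, with 1809 and 1786 junctions, and donors 4 nt downstream, with 913.

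An acceptor 3 nt downstream drops the first 3 bases of the annotated exon, and for a GT-AG or GC-AG intron these bases end in AG by definition, giving a tandem acceptor. All 1809 could be read from GENCODE 29 transcripts. The dropped bases were AAG in 717, GAG in 576, CAG in 418 and TAG in 98 junctions. The use of the second site differed by its first base. With CAG the median share of the second acceptor among the reads of both sites was 8.17%, with TAG 5.51%, with AAG 1.19% and with GAG 0.270%. CAG sites held 49.1% of the reads of the 1809. Only unannotated junctions with at least 1 read entered, so annotated tandem pairs are left out. Depth also differed: the annotated sites held 813578 reads beside the GAG junctions and 164278 beside the CAG junctions. With reads pooled the shares were 6.77% for CAG, 5.52% for TAG, 1.44% for AAG and 0.220% for GAG. These shares are descriptions over junctions of these libraries.

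Several of the deepest unannotated junctions in genes were of this kind. The first bases of the annotated exon are shown for 3 of them, 5′ to 3′ in GRCh38, with the 3 dropped bases in capitals and the position of the junction's intron.
NUCKS1 (chr1:205719674-205720500, minus strand): AAGattccggcagcgatgaagat
PGAM5 (chr12:132717799-132717989, plus strand): CAGtattacgaagacggagcccg
THRAP3 (chr1:36301085-36301555, plus strand): CAGtttcgagccagaggaagagg
NUCKS1, a nuclear casein kinase substrate, had 317, 402, 321 and 322 reads on the junction, 13.6% ± 0.66 of the reads of all junctions that use its donor or its acceptor, a share called usage from here on. PGAM5, a mitochondrial phosphatase, had 164, 187, 181 and 156 reads (38.8% ± 1.11). THRAP3, a splicing and transcription cofactor, had 142, 200, 174 and 134 reads (33.2% ± 2.86). All 3 junctions were present in each library at similar depth.

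In TMEM59, PRKDC and CPSF6, a cleavage and polyadenylation factor, the new acceptor lay 3 nt upstream and usage was 26.3% ± 1.90, 24.98% ± 0.91 and 25.01% ± 1.95. A deeper unannotated junction, in USP9X, joined an annotated donor to an acceptor 15 nt upstream of the annotated one, which adds 5 codons' worth of bases. It had 354, 448, 429 and 395 reads and a usage of 28.1 to 30.3% (29.3% ± 0.90). New donors were found in HNRNPF, 41 nt upstream of the nearest annotated donor (984 reads in all, 51.9% ± 3.69), in ZNF711, 111 nt upstream (583 reads, 9.33% ± 0.49), in PCDH11X, a protocadherin gene (649 reads, 83.1% ± 2.19), and in PNISR, a splicing-related protein gene (553 reads, 93.2% ± 2.46). New pairs of annotated sites were found in RPLP2 (606 reads, 1.64% ± 0.19), TFDP1 (588 reads, 12.02% ± 0.96), CLASP2 (550 reads, 87.7% ± 1.80) and FLNA (542 reads, 13.6% ± 0.84). The pseudogenes AC245060.4 (988 reads) and SDHAP3 (575 reads) and the 7SL RNA gene RN7SL3 (1002 reads) were also among the 20. The RN7SL3 junction has a single end in that gene and spans 8919 nt between new sites, and the 7SL gene RN7SL2 lies on the same strand within reach of this span. A junction with nearly the same ends had 191 unique and 639 multiply mapped reads. The part of similar 7SL copies in these placements was not tested.

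UBB encodes polyubiquitin, a head-to-tail row of near-identical ubiquitin units. Of its 33 unannotated junctions on either strand, 7 had a length that is a multiple of the unit's 228 nt, against 0.433% of all unannotated junctions. These 7 held 98, 117, 232 and 101 reads in replicates 9 to 12, together 89.98% of the 609 unannotated reads in the gene, both strands counted. Among them a 228-nt junction on the strand opposite UBB, from an annotated donor of AC093484.3, held 53, 52, 118 and 59 reads. Replicate 11 stood above the others. A read across such a join and a read from a shorter row of units cannot be told apart in these tables.

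The IRS4 locus on the X chromosome held a group of unannotated junctions. Loci were not ranked by such groups. IRS4 encodes an insulin receptor substrate first known from HEK293 cells, and the annotated gene AL035425.2 runs on from its 3′ end on the same strand. In a window from 108702482 to 108746409, 57 unannotated junctions carried 759, 910, 962 and 848 reads, against 861, 1050, 1076 and 950 reads on 4 annotated introns. Of the 57 junctions, 46 lay on the minus strand, that of both genes. The deepest, from a new donor to an annotated acceptor of AL035425.2, had 304, 357, 389 and 365 reads (26.3% ± 0.96 of the reads at its sites). A further 3 left 1 annotated donor for new acceptors, with 573, 532 and 340 reads. Unannotated reads were nearly as many as annotated ones in each library. Of the 100 deepest unannotated junctions, 13 lay on the X chromosome, where 3.20% of annotated and 3.69% of unannotated junctions with reads lie. These 13 are not separate loci, since AL035425.2 and ZNF711 each gave several of them. An excess on the chromosome as a whole was not tested.

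Reads were lower at the first introns of transcripts. In 3522 transcripts with at least 10 introns, the first decile of the introns had a median of 0.817, 0.816, 0.762 and 0.783 times the transcript's mean reads in replicates 9 to 12, and the third decile 1.07 to 1.08 times. The last decile stood at 0.942 to 0.959. The median ratio of the last to the first intron over 6133 transcripts with at least 5 introns was 1.56 and 1.58 in lane 8, and 1.78 and 1.75 in lane 7. The lanes did not overlap, but an exact two-sided permutation test of 2 against 2 libraries cannot go below p = 0.333.

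**Figure D5:**
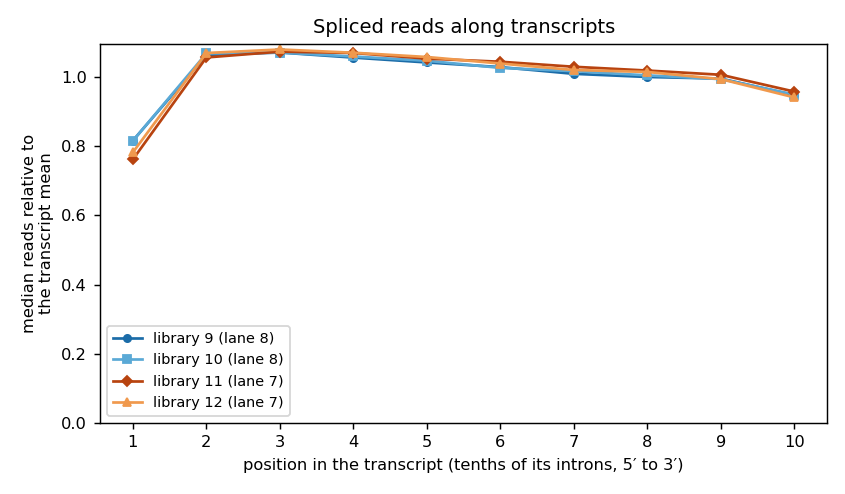
Median spliced reads relative to the transcript mean, by decile of the introns from 5′ to 3′, in 3522 transcripts with at least 10 introns; 1 line per library, coloured by replicate and lane. The first decile is lowest in each library, at 0.762 to 0.817, and the lane 7 lines lie under the lane 8 lines there.

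Few gene levels differed between the lanes. By edgeR's quasi-likelihood test with Benjamini-Hochberg adjustment, 9 of 14299 genes, 0.0629% of those tested, were higher in lane 8 and 0 were lower at an adjusted p under 0.05, while 1099 had an unadjusted p under 0.05. DESeq2 called 11 higher and 0 lower among 1824 genes that it gave an adjusted p. RPL36, a ribosomal protein gene, had 997, 969, 773 and 758 counts per 1000000 (TMM-scaled) in replicates 9 to 12, a log2 difference of 0.36 ± 0.049 (SE, adjusted p = 0.00358 by edgeR). PTMA, the gene with the wide spread above, had 1642, 1538, 1299 and 1165 (log2 0.37 ± 0.054, adjusted p = 0.00680 by edgeR). For both genes the 2 libraries of lane 8 exceeded the 2 of lane 7. CD99 (a cell surface glycoprotein), MIF (a cytokine), PTMS (a relative of PTMA), MRPS34 (mitochondrial ribosome), HES4 and ID4 (transcriptional regulators) had log2 differences of 0.44, 0.44, 0.38, 0.51, 0.52 and 0.54, with edgeR adjusted p of 0.0139, 0.0139, 0.0289, 0.0488, 0.0289 and 0.0289. With multiply mapped reads added, these 6 lost the call (edgeR adjusted p of 0.0603 to 0.125) and the count fell to 2, RPL36 and PTMA. MRPS34 also lost it without TMM scaling (edgeR adjusted p = 0.0606), and DESeq2 gave no adjusted p for ID4, HES4, MRPS34 and PTMS. The call count rests on single libraries: without replicate 11 it was 2016, without replicate 12 it was 379, and without replicate 9 or replicate 10 it was 0. Replicate 12 stood apart in gene counts, with a chi-square per degree of freedom of 7.21 against its lane partner, where replicates 9 and 10 had 1.95. Lane and any difference between cultures cannot be told apart.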

How the data were processed

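The tables give, per junction, deposited counts of uniquely and of multiply mapped reads, not normalized, with motif code, annotation mark and overhang. The authors aligned with STAR 2.6.0c to GRCh38, per the submitters' processing notes. Annotation settings are not given in the sources used here, and the mark was the same as in GENCODE 29 for 99.8% of junctions. Unique reads were used. Gene sums ran over marked introns matched to GENCODE 29. An intron that genes share counts for each of them. The best supported transcript has the fewest introns among those with at least 99% of the most reads of the gene. Named genes, exons and junctions were the deepest by fixed numbers (25 genes by reads, 15 by level, 20 exons, 20 junctions, 6 introns per rare class), the top 3 and unread genes of each list, and lane genes with a mean of at least 100 reads. SF3B1, MBNL1, RBFOX2, ESRP2, PTBP2, ELAVL2, PAX2, L1CAM, the undetected regulators with reads, the microexons outside the 20 and the introns of other dinucleotides were named after their values were seen. A few genes that this rule names are not reported here. The topic and the genes, exons, junctions and lists that are its members were chosen with earlier results of these data known. Lanes were compared with edgeR 4.0.16 (TMM, filterByExpr, no covariate), DESeq2 1.42.0 serving as the alternative. Both the lane test and the exon step were tested on simulated data. Depth limits rare junctions, and errors are SDs over the 4 libraries. Alternatives left out each library in turn, added multiply mapped reads, and changed minimums, filters and the annotation. Python 3.11.15 was used with pandas 2.3.3.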

Additional observations from a re-analysis of the deposited data

Results flagged for a closer look

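Of 173 values checked for 1 library far from the other 3, 9 stood out (chance alone marks about 1 in 20). The clearest was UBB: the junctions of repeat length on either strand of the gene had 9.16 reads per 1000000 unique junction reads in replicate 11 against 4.38 to 4.57 in the others. In replicate 12, PLS3 was high at 3149 spliced reads per 1000000 annotated reads (2877 to 2916 in the others), while RPL13A (2769, against 2973 to 3014), RPL7A (2356, against 2467 to 2484) and AC016876.2 (1957, against 2030 to 2037) were low. The level of RPL13A per intron in replicate 12 was 395, against 424 to 430. TUBA1B had a level of 388 in replicate 11, against 362 to 366. In replicate 10 the unannotated junctions of PCDH11X (5.58 reads per 1000000, against 7.10 to 7.34) and ZNF711 (5.50, against 6.20 to 6.34) were low. The causes were not tested.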

How the results depend on the processing

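Adding multiply mapped reads gave an annotated share of reads of 99.002%, an unannotated share of junctions of 35.1%, 2.10% of unannotated junctions other than GT-AG (2.02% with unique reads), 23.01% of unannotated reads on new pairs, 46.3% of cassette exons at 90% or more and 2 genes between lanes. Junctions with at least 5 reads gave 99.44%, 14.8%, 0.596% and 29.2% for the first 4, and 0.863% of reads off GT-AG (0.870% with all junctions). GENCODE 29 introns gave 99.14% annotated reads, and an overhang of at least 20 gave 99.17%. The 100 deepest genes held 17.3% on introns of a single gene and 23.02% by mean per intron. At least 20 reads per library left 49.8% of exons at 90% or more; a minimum of 1 read for each form gave 39608 exons, 76.6% of them at 90% or more. Leaving out 1 library in turn moved that share to 40.8 to 42.0%, as the minimum over fewer libraries removes exons with few skipping reads, and the lane count from 0 to 2016, where the lone library of a lane is assumed to vary like the others. Without the low-count filter the lane test called 48 genes. With multiply mapped reads, 32 of 40 named gene levels, 72 of 73 exons and 39 of 42 junctions moved by less than their SD. No paired analysis was possible because the lanes share no replicate number.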
